A study of Arabidopsis thaliana with 12 samples.

Results

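The heat response of 35S:HSFA1b plants was measured by RNA-seq in 6 of the 12 columns of the deposited FPKM table, namely the 3 columns of heat-stressed (HS) and the 3 columns of non-stressed (NS) plants of this line, chosen by the genotype and treatment in the column names. Both groups were 5-week-old Arabidopsis thaliana plants in the Col-0 background that carry an HSFA1b-RFP fusion, RFP being a red fluorescent protein, driven by the constitutive 35S promoter. They had been grown in 8 h light and 16 h dark at 23 °C. Per the heat stress the study describes, the 35S HS plants were held for 30 min at 37 °C, with the relative humidity at 86%. The 35S NS plants stayed under growth conditions. The RNA-seq methods of the study list 3 biological replicates each of WT plants under NS and HS and of 35S:HSFA1b plants under NS. Heated 35S:HSFA1b plants are not among them, so whether their replicates are biological is not stated there. RNA came from leaves, and in such bulk samples fewer cells of a type and less RNA per cell cannot be told apart. A single transgenic line was used, so the line and the transgene cannot be told apart. WT (Col-0) plants under HS and under NS, with 3 columns each, were treated in the same way and are given beside the 35S:HSFA1b values. All 12 libraries carry wild type as their genotype label. Their titles tell the overexpressor from WT plants and were followed. The labels number the replicates of each group and do not say whether a library came from 1 plant or a pool, so p-values measure the spread between these libraries.

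HSFs are transcription factors that bind heat shock elements, repeats of the unit GAA in alternating orientation, in the promoters of heat-responsive genes. The clade A1 HSFs, to which HSFA1b belongs, start the response within minutes and induce further HSF genes. Their targets include the heat shock proteins (HSPs), chaperones that hold, refold or disaggregate proteins damaged by heat. The measured values are FPKM, fragment numbers divided by transcript length and by the size of the library. Differences were tested with limma on log2(FPKM + 0.01), so fold changes of genes with columns at or near 0 FPKM depend on the added value. A gene is called a DEG where its p, adjusted by the Benjamini-Hochberg procedure over all tested genes, did not exceed 0.05. The table holds no read counts, so the depth is unknown. For a single gene, 3 columns against 3 cannot give an exact permutation p below 0.1.

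The targeted gene was examined before the others. HSFA1b (AT5G16820, chromosome 5 of TAIR10.1, 5530195 to 5532889) stood at 329.9, 364 and 351 FPKM in 35S HS columns and at 429.6, 462 and 624 FPKM in 35S NS columns, while WT HS columns averaged 6.68 and WT NS columns 3.81 FPKM. All 6 columns of the line were thus far above every WT column. HSFA1b was lower in 35S HS than in 35S NS plants, with a change of -0.52 ± 0.17 (SE) on the log2 scale (limma adjusted p = 0.028). The call was lost without 35S NS column 2 and 35S HS columns 0, 1 and 2 (adjusted p from 0.054 to 0.11), 1 column at a time. In WT plants HSFA1b was up-regulated by HS (log2 fold change 0.83, limma adjusted p = 0.0022). The values include fragments of the transgene.

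One column of the line stood apart. In 35S NS column 2 the highest value of any locus was 21189 FPKM, within reach of the 24698 to 30644 FPKM of the WT columns, whereas it was 4095 to 5341 FPKM in the other 5 columns of the line. The 100 most abundant loci took 33.9% of its summed FPKM, 19.6% to 23.9% in the other 35S:HSFA1b columns and 36.8% to 40.9% in WT columns. The description of each library starts with 1 of 2 numbers. All 3 35S HS libraries and 2 of the 35S NS libraries start with 720, and the remaining 35S NS library and all 6 WT libraries with 1369. Columns cannot be matched to libraries, so whether column 2 is the 35S NS library that starts with 1369 was not tested. Among the 105 genes at 1000 FPKM or more in WT NS plants, column 2 exceeded the mean of the other 35S NS columns by a median of 0.78 on the log2 scale, and among genes below 100 FPKM the median was between -0.06 and -0.04. Results are therefore given with and without this column where it matters, and the part of the library prefix in any difference between genotypes cannot be told apart from the genotype. Leaf markers were high in all 12 columns (6 of 6 tested), only 1 of 6 root markers passed the filter on low values, and 0 of 23 flower, pollen and seed markers did. The leaf markers summed to 16787 to 18959 FPKM in 35S HS columns and to 14960 to 56338 FPKM in 35S NS columns, the highest being column 2.

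HS changed the transcript levels of 7500 of 17720 tested genes in 35S:HSFA1b plants (42.3%). Of these, 4011 were up-regulated (22.6% of tested genes) and 3489 were down-regulated (19.7%), and the median over all tested genes was 0.02 on the log2 scale. Without 35S NS column 2, 6018 genes were DEGs (34.0%), 3217 up (18.2%) and 2801 down (15.8%). Changes of 1 or more on the log2 scale were reached by 835 up-regulated and 1248 down-regulated genes. With each column scaled to the same total, 5404 genes were DEGs and the share of up-regulated genes among them was 31.2% in place of 53.5%, with the median of all genes moved to -0.12. The 35S HS columns lay entirely above the 35S NS columns in 5539 genes (31.3%) and entirely below them in 4892 genes (27.6%), together 10431 genes or 58.9% of those tested. In WT plants 8647 genes were DEGs under HS (48.8%), with 4657 increases (26.3%) and 3990 decreases (22.5%). The plot of level against fold change shows that few of the most abundant genes passed the threshold, which depended on 35S NS column 2. Of the 105 genes at 1000 FPKM or more in WT NS plants, 0 were up-regulated and 5 down-regulated. Without that column 15 were up-regulated and 3 down-regulated.

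**Figure D1:**
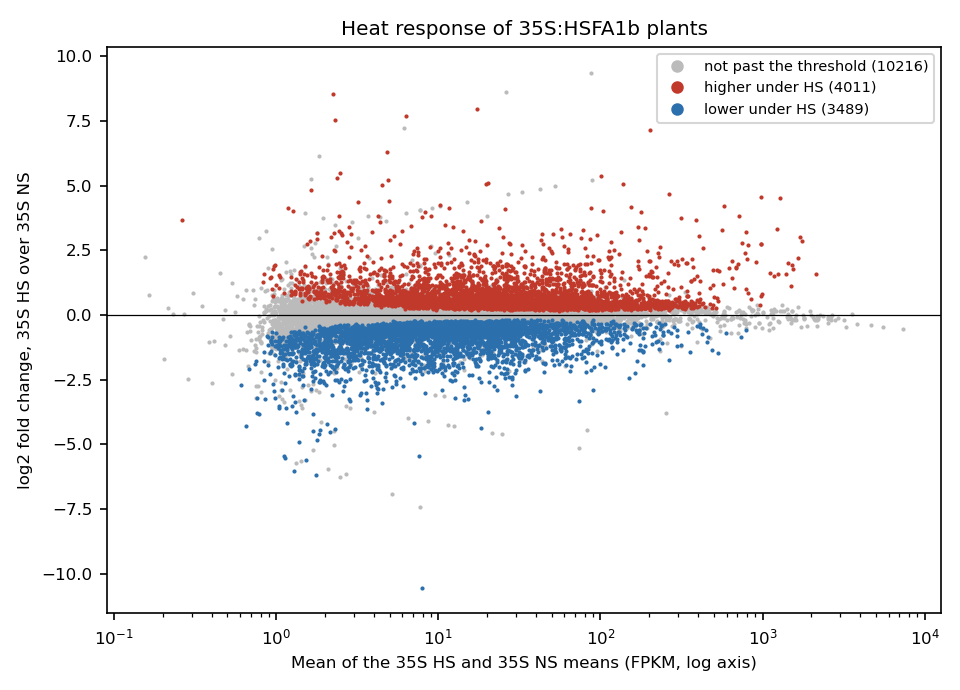
Heat response of 35S:HSFA1b plants, with the mean of the 35S HS and 35S NS means in FPKM on a log x axis and the log2 fold change of 35S HS over 35S NS on the y axis, 1 point per gene. The 4011 up-regulated genes are red, the 3489 down-regulated genes blue and the others grey, and above 1000 FPKM most points are grey. The 4 tested genes at 0 in all 6 columns are not drawn.

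The largest increases, among genes of at least 10 FPKM in a group whose columns did not overlap, were found for genes with low levels in 35S NS plants. HSFA7B (AT3G63350), a heat-inducible HSF gene, had 22.9, 42.00 and 39.03 FPKM in 35S HS columns and 0.153, 0.0778 and 0.159 FPKM in 35S NS columns, a change of 7.96 ± 0.7 (SE) on the log2 scale (limma adjusted p = 1.3e-05). AT4G24420, annotated as an RNA-binding protein, had 10.4, 14.2 and 12.8 FPKM under HS and 0, 0.168 and 0.108 FPKM under NS (log2 fold change 7.7, limma adjusted p = 6.7e-05). AT1G71000, a DnaJ-domain protein of the co-chaperone class, reached 355, 427 and 424 FPKM under HS and had 3.26, 2.47 and 2.82 FPKM under NS (log2 fold change 7.14, limma adjusted p = 4.3e-05). Columns without overlap were a condition of this choice, which 58.9% of all tested genes met. The F-box gene FBS1 (AT1G61340) had 256, 297 and 250.4 FPKM in 35S HS and 8.302, 9.02 and 6.94 FPKM in 35S NS columns (log2 fold change 5.05, limma adjusted p = 3.7e-06). HSFA2 (AT2G26150), which amplifies and prolongs the heat response, had 480.0, 568 and 489.7 FPKM in 35S HS and 17.74, 20.1 and 21.5 FPKM in 35S NS columns (log2 fold change 4.7, limma adjusted p = 4.4e-06). The small HSP genes HSP22.0, whose protein is located in the endoplasmic reticulum, and HSP17.8-CI, a cytosolic class I member, completed the increases led by chaperone genes, with log2 fold changes of 4.55 and 4.53 (limma adjusted p = 0.0046 and 2.8e-06).

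PTR5 (AT5G01180), a peptide transporter gene, was among the 10 largest increases as well. It had 159, 232 and 197 FPKM in 35S HS columns and 4.46, 5.51 and 4.096 FPKM in 35S NS columns, a change of 5.37 ± 0.31 (SE) on the log2 scale (limma adjusted p = 1.1e-06). WT columns had a mean of 16.7 FPKM under HS and 0.578 FPKM under NS, so the level was higher in 35S:HSFA1b plants under each condition while the fold changes did not differ past the threshold (limma adjusted p of the difference = 0.32). The difference passed, at 1.05 on the log2 scale, without WT HS column 2 (adjusted p = 0.049). The transcription factor gene ERF53, whose product binds drought-responsive elements, had 29.2, 50.4 and 39.2 FPKM in 35S HS and 1.31, 0.684 and 1.52 FPKM in 35S NS columns (log2 fold change 5.11, limma adjusted p = 2.2e-06). AT5G05220, which has no annotated function, had 32.98, 40.8 and 40.05 FPKM in 35S HS and 0.542, 1.88 and 1.33 FPKM in 35S NS columns (log2 fold change 5.08, limma adjusted p = 0.00043). PTR5 overlaps another gene on the opposite strand by 198 bp, and no source used here says whether reads were assigned by strand.

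**Figure D2:**
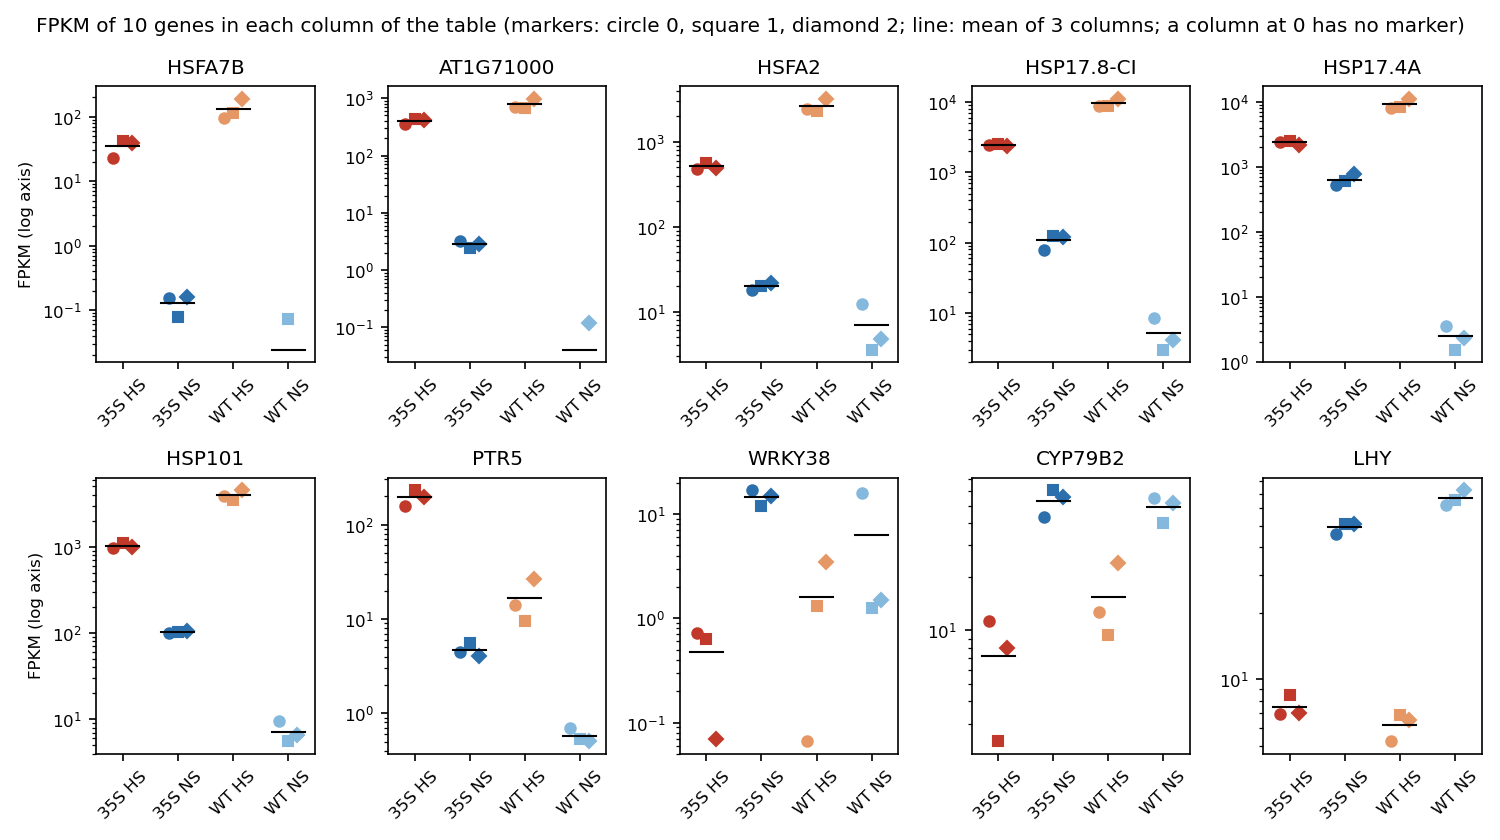
FPKM of 10 genes on log y axes, 1 marker per column of the table (circle 0, square 1, diamond 2) and a line at the mean of the 3 columns, for 35S HS, 35S NS, WT HS and WT NS plants. The 35S HS columns of HSFA2 sit between 480.0 and 568 FPKM and its 35S NS columns between 17.74 and 21.5 FPKM. The groups of the line do not overlap in any of the 10 genes, which for most of them was a condition of their choice. Of all tested genes 58.9% do not overlap. The 4 values at 0 have no marker.

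The heat shock element was searched in promoters, taken as the 250 bases before and the 50 bases after each annotated start in the RefSeq annotation of TAIR10.1, because members of this set move together. The motif was 3 alternating units, GAA then TTC then GAA with any 2 bases between neighbours, or TTC then GAA then TTC in the same spacing, so that both strands were covered. It was present in 0.575% of the promoters of tested protein-coding genes (99 of 17228) and in 0.487% of all 26674 protein-coding promoters of the table. Up-regulated genes held it in 1.37% (54 of 3943), those with a log2 fold change of at least 2 in 6.04% (11 of 182), down-regulated genes in 0.206% (7 of 3400) and the other tested genes in 0.384%. These shares are descriptions, and a match is not a binding site. The promoters of the largest increases and of the most abundant HSP genes that hold the motif are shown 5′ to 3′, in the orientation of the gene, with the motif in capitals.
HSFA7B promoter (chr3:23398986-23399285, plus strand): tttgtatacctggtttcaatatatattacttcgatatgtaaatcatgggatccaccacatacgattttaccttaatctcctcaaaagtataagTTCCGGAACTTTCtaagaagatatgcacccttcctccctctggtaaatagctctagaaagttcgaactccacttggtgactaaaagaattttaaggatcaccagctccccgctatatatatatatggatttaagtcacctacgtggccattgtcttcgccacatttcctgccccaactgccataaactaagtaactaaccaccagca
AT1G71000 promoter (chr1:26770128-26770427, minus strand): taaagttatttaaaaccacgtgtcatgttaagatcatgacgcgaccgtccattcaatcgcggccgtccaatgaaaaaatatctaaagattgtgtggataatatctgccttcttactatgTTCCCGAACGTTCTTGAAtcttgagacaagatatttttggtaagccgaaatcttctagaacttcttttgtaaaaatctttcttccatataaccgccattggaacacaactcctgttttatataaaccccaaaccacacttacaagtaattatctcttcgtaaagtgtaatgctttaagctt
HSFA2 promoter (chr2:11135374-11135673, plus strand): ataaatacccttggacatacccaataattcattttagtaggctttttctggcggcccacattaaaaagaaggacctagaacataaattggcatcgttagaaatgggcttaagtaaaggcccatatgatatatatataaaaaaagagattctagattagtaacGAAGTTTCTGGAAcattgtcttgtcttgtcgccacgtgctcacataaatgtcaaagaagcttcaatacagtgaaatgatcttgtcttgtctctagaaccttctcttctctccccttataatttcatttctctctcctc
HSP17.4A promoter (chr3:16984818-16985117, minus strand): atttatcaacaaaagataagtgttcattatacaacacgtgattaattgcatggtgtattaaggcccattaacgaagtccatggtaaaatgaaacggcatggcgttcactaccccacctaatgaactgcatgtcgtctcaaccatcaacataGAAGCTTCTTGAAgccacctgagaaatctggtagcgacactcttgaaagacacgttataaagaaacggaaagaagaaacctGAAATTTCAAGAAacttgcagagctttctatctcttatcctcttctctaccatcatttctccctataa
HSP17.6C-CI promoter (chr1:19980049-19980348, plus strand): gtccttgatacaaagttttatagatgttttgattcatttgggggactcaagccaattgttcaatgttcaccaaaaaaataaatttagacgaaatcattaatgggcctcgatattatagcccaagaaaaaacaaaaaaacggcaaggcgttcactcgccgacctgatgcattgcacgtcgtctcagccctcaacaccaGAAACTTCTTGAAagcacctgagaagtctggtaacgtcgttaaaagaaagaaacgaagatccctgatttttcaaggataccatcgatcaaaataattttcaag

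In these 5 promoters the motif began 157 bases before the start in HSFA7B, 88 in HSFA2 and 53 in HSP17.6C-CI. HSP17.4A held it at 99 and at 18 bases before the start. AT1G71000 held overlapping matches at 131 and 126 bases before the start, which join to 4 alternating units. Most of the largest increases had no such run of letters in this window, namely AT4G24420, PTR5, ERF53, AT5G05220, FBS1, HSP22.0 and HSP17.8-CI. HSP17.7-CII, which was also strongly expressed under HS, had none, and neither had HSP17.6B-CI, HSP17.6A-CII, HSP23.6 or APX2. HSFA1b itself had none.

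Cytosolic small HSPs, which bind unfolding proteins, included the most abundant up-regulated genes. Of 12 tested genes of the list 10 were up-regulated and 0 were down-regulated, with a median log2 fold change of 2.08. HSP17.7-CII (AT5G12020), a class II member, had the highest mean of all up-regulated genes, with 3378, 3314 and 2909 FPKM in 35S HS and 899, 925 and 1444 FPKM in 35S NS columns (log2 fold change 1.59 ± 0.34 SE, limma adjusted p = 0.0035). HSP17.6B-CI had 3317, 3157 and 2805 FPKM under HS and 343, 449 and 483 FPKM under NS (log2 fold change 2.88, limma adjusted p = 3.5e-05). HSP17.6C-CI had 3047, 3241 and 2829 FPKM under HS and 319, 384 and 444 FPKM under NS (log2 fold change 3.0, limma adjusted p = 1.7e-06). All 3 were already abundant in 35S NS columns, where WT NS columns averaged 2.81, 4.16 and 1.37 FPKM. The largest fold change of the list after that of HSP17.8-CI belonged to HSP17.6A-CI, which had 1065, 1164 and 1063 FPKM in 35S HS and 55.1, 58.7 and 65.97 FPKM in 35S NS columns (log2 fold change 4.2, limma adjusted p = 2.7e-07). HSP15.4 and HSP21.7 did not pass, at log2 fold changes of 0.42 and 0.17 (limma adjusted p = 0.21 and 0.38). HSP17.4A overlaps a gene on the opposite strand by 453 bp.

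The 6 small HSPs of organelles were all up-regulated, with a median log2 fold change of 3.0. Mitochondrial HSP26.5 had 1303, 1491 and 1246 FPKM in 35S HS and 83.03, 103 and 95.8 FPKM in 35S NS columns (log2 fold change 3.85, limma adjusted p = 4.3e-06). Mitochondrial HSP23.6 (AT4G25200) had 1655, 1884 and 1613 FPKM in 35S HS and 223, 250.3 and 288 FPKM in 35S NS columns (log2 fold change 2.76, limma adjusted p = 0.00021). Peroxisomal HSP15.7 changed least of the 6, with 1857, 1705 and 1518 FPKM in 35S HS and 225, 256 and 276 FPKM in 35S NS columns (log2 fold change 2.75, limma adjusted p = 2.9e-06). No HS column of the 3 genes overlapped with a NS column, as in 58.9% of all tested genes. HSP23.6 shares 124 bp with another locus at 96.8% identity, and its value is uncertain to that extent.

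The larger chaperones followed with smaller fold changes. In the HSP70 family, whose members fold and transport proteins in every compartment, 13 of 16 tested genes were up-regulated and 0 down-regulated (median log2 fold change 1.32). HSP70-5, annotated as HSP70B, had 2252, 2382 and 2061 FPKM in 35S HS and 176, 229.9 and 263 FPKM in 35S NS columns (log2 fold change 3.34, limma adjusted p = 1.8e-06). HSP70T-2 had 378, 431 and 394 FPKM under HS and 59.96, 67.2 and 68.2 FPKM under NS (log2 fold change 2.62, limma adjusted p = 7.6e-07). The constitutive HSC70-1 overlapped between the groups, with 1204, 1200.4 and 1154 FPKM in 35S HS and 939.8, 934 and 1465 FPKM in 35S NS columns (log2 fold change 0.12, limma adjusted p = 0.59). Column 2 decided this value, since without it the log2 fold change was 0.34 (limma adjusted p = 0.032), while under quantile normalization it was -0.33, a decrease past the threshold (limma adjusted p = 0.032). Mitochondrial mtHSC70-1 was near the threshold (log2 fold change 0.23, limma adjusted p = 0.039), and its call was lost without 35S NS columns 1 and 2 and 35S HS columns 1 and 2 (adjusted p from 0.091 to 0.14), 1 at a time. It was also lost under quantile normalization, with columns scaled to the same total, without the intensity trend and with the column digit as a replicate block (adjusted p = 0.41, 0.68, 0.055 and 0.07).

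HSP90 proteins hold signalling proteins and keep HSFs inactive in unstressed cells. Of 7 HSP90 genes 5 were up-regulated (median log2 fold change 0.89). HSP90.1, the inducible cytosolic member, had 2384, 2391 and 2103 FPKM in 35S HS and 494, 556 and 655 FPKM in 35S NS columns (log2 fold change 2.02, limma adjusted p = 0.0011). HSP90.2 had 1078, 1207 and 1099 FPKM under HS and 291, 263 and 300.4 FPKM under NS (log2 fold change 1.99, limma adjusted p = 9.7e-07). HSP90.4 stood at 21.1, 20.9 and 19.3 FPKM under HS and 20.1, 18.2 and 18.9 FPKM under NS and did not pass (log2 fold change 0.1, limma adjusted p = 0.31). HSP90.2 and HSP90.4 align with HSP90.3 at more than 90% identity, so their separate values are uncertain. Endoplasmic HSP90.7 did not pass (log2 fold change 0.76, limma adjusted p = 0.061), but did without WT NS column 0 and WT HS columns 0 and 2 (adjusted p from 0.025 to 0.033), 1 at a time, and when only the 6 columns of the line were fitted (adjusted p = 0.0029).

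Among HSP100 and related disaggregation genes 5 of 6 were up-regulated (median log2 fold change 1.79). HSP101 (AT1G74310), the disaggregase needed for acquired thermotolerance, had 965, 1104 and 993 FPKM in 35S HS and 101, 102 and 106 FPKM in 35S NS columns (log2 fold change 3.31, limma adjusted p = 7.6e-07). Mitochondrial CLPB4 had 170.1, 199.7 and 178 FPKM under HS and 37.4, 38.6 and 40.2 FPKM under NS (log2 fold change 2.23, limma adjusted p = 7.6e-07). The chloroplast chaperone CLPC1 did not pass, at a log2 change of 0.07 (limma adjusted p = 0.61), a value that turned negative when columns were scaled to the same total and was a decrease past the threshold under quantile normalization (-0.3, limma adjusted p = 0.013). HSP101 overlaps a gene on the opposite strand by 101 bp and shares 442 bp at 90.27% identity with AT4G01435.

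All 11 chaperonin genes, whose products form folding chambers in chloroplasts and mitochondria, were up-regulated, with log2 fold changes between 0.27 and 1.99 and a median of 0.78. The number was 10 under quantile normalization and 9 with columns scaled to the same total. CPN60B2 of the chloroplast had 478, 586 and 542 FPKM in 35S HS and 145, 129 and 129.6 FPKM in 35S NS columns (log2 fold change 1.99, limma adjusted p = 6.9e-07). HSP60 of the mitochondrion had 279, 338 and 284 FPKM under HS and 106, 101 and 92.3 FPKM under NS (log2 fold change 1.58, limma adjusted p = 1.7e-06). CPN60B3 changed least, with 40.7, 42.8 and 38.8 FPKM under HS and 34.2, 35.9 and 31.7 FPKM under NS (log2 fold change 0.27, limma adjusted p = 0.012), and its call was lost without 35S HS column 1 (adjusted p = 0.051), under quantile normalization (adjusted p = 0.14) and with columns scaled to the same total (adjusted p = 0.56). Of 18 co-chaperone genes 15 were up-regulated (median log2 fold change 1.1). ERDJ3A, a J-domain partner of HSP70 in the endoplasmic reticulum, had 304, 351 and 284 FPKM in 35S HS and 29.7, 31.02 and 26.9 FPKM in 35S NS columns (log2 fold change 3.42, limma adjusted p = 0.00014). BAG6, a BAG-domain co-chaperone, had 718, 745 and 718 FPKM under HS and 78.7, 94.7 and 92.95 FPKM under NS (log2 fold change 3.04, limma adjusted p = 8.6e-07). BAG7 and P23-2 overlapped between the groups. CPN60B2 overlaps a gene on the opposite strand by 553 bp.

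The plot of members past the threshold by gene list sets these groups beside the others.

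**Figure D3:**
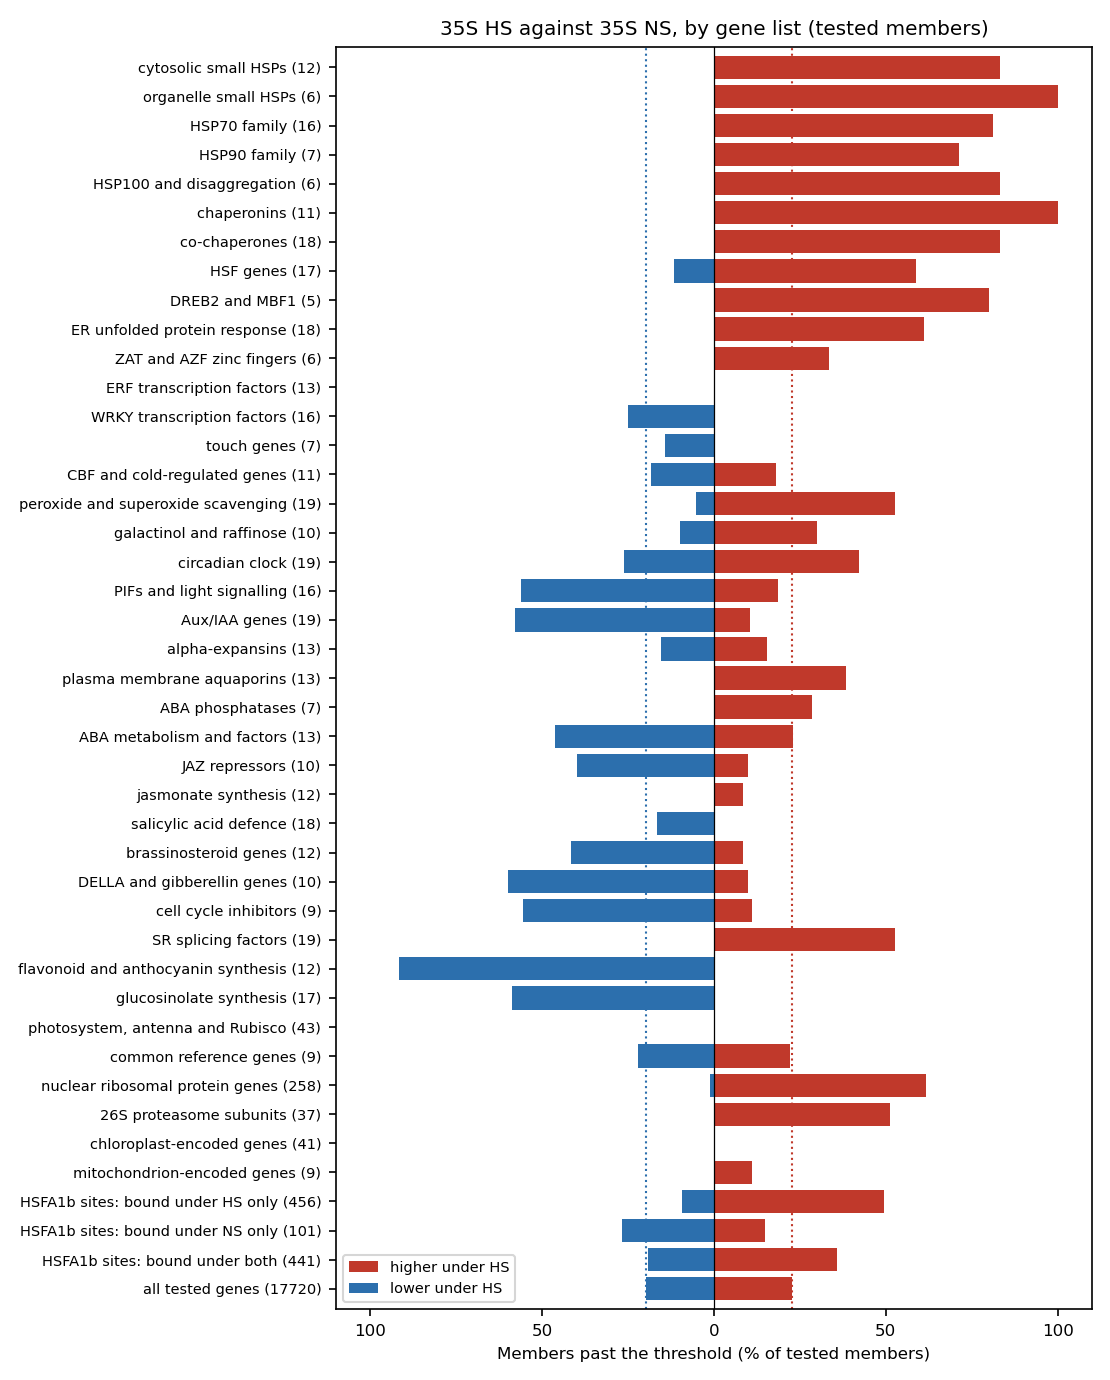
Share of the tested members of each gene list that passed the threshold in 35S HS against 35S NS, with up-regulated members to the right in red and down-regulated members to the left in blue, and the number of tested members in brackets. The dotted lines mark the shares over all 17720 tested genes (22.6% up and 19.7% down). All 6 organelle small HSPs and all 11 chaperonins were up-regulated, and 11 of 12 flavonoid genes were down-regulated.

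HSF genes responded unequally. Of 17 tested HSF genes 10 were up-regulated and 2 down-regulated, and the median log2 fold change was 1.64. HSFA7A followed HSFA7B and HSFA2, with 165, 173 and 156 FPKM in 35S HS and 8.67, 10.9 and 8.53 FPKM in 35S NS columns (log2 fold change 4.14, limma adjusted p = 2.7e-07). Of the clade A1 genes beside HSFA1b, HSFA1E had 13.3, 20.02 and 17.401 FPKM in 35S HS and 2.76, 3.66 and 2.605 FPKM in 35S NS columns (log2 fold change 2.48, limma adjusted p = 0.00024). HSFA1D had 25.5, 30.1 and 27.2 FPKM in 35S HS and 5.39, 5.83 and 5.33 FPKM in 35S NS columns (log2 fold change 2.32, limma adjusted p = 1.4e-06). Unlike these, HSFA1A was low in both groups, with 3.43, 2.697 and 2.27 FPKM under HS and 3.61, 4.304 and 3.27 FPKM under NS, and did not pass (log2 fold change -0.42, limma adjusted p = 0.08), but did without 35S HS column 0 (adjusted p = 0.031). The class B genes, which encode HSFs without the activation motif of class A and act mostly as repressors, were up-regulated as a group of 4. HSFB1 had 468, 500.0 and 469 FPKM in 35S HS and 86.4, 109 and 148 FPKM in 35S NS columns (log2 fold change 2.1, limma adjusted p = 0.00017). HSFB2B, HSFB2A and HSFB4 had log2 fold changes of 1.64, 1.3 and 0.97 (limma adjusted p = 1.7e-06, 6.5e-05 and 7.8e-05).

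Of the remaining HSF genes HSFA4A was up-regulated (log2 fold change 1.91, limma adjusted p = 0.0037). HSFA3, which acts downstream of DREB2A, had 1.07, 2.36 and 2.22 FPKM in 35S HS and 0.716, 0.597 and 0.356 FPKM in 35S NS columns and narrowly missed the threshold (log2 fold change 1.72, limma adjusted p = 0.056), which it passed without WT NS column 0, WT HS columns 0 and 2 and 35S HS column 0 (adjusted p from 0.025 to 0.05), 1 at a time, under quantile normalization (adjusted p = 0.029), with the replicate block (adjusted p = 0.044) and when only the 6 columns of the line were fitted (adjusted p = 0.01). HSFC1 had 5.68, 7.73 and 6.15 FPKM in 35S HS and 7.903, 11.1 and 10.8 FPKM in 35S NS columns (log2 fold change -0.6, limma adjusted p = 0.02), and its call was lost without 35S NS columns 1 and 2 and 35S HS columns 0 and 2 (adjusted p from 0.064 to 0.076), 1 at a time. Together with HSFA1b it made up the down-regulated members of the list, a number that was 0 without 35S NS column 2 and 35S HS column 2 and 1 without 35S NS column 1 and 35S HS columns 0 and 1. HSFA8, HSFA5 and HSFA4C overlapped between the groups and had log2 fold changes of 0.01, -0.17 and -0.17 (limma adjusted p = 0.99, 0.25 and 0.51). HSFA6A, HSFA6B, HSFA9 and HSFB3 were too low to be tested. HSFC1 overlaps a gene on the opposite strand by 1808 bp, HSFA3 by 486 bp and HSFB2B by up to 352 bp.

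Of the 5 tested DREB2 and MBF1 genes 4 were up-regulated (median log2 fold change 2.04). DREB2A, a factor of the drought and heat responses, had 28.3, 38.2 and 35.4 FPKM in 35S HS and 2.55, 2.82 and 2.75 FPKM in 35S NS columns (log2 fold change 3.63, limma adjusted p = 4e-06). DREB2B had 13.8, 17.1 and 15.74 FPKM in 35S HS and 1.07, 0.966 and 0.897 FPKM in 35S NS columns (log2 fold change 3.97, limma adjusted p = 8.4e-06). The coactivator gene MBF1B rose by a log2 change of 0.68 (limma adjusted p = 4.2e-05), while MBF1A did not pass, at 0.17 (limma adjusted p = 0.16), with a negative value under quantile normalization. DREB2B is overlapped by a gene on the opposite strand over 1086 bp.

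Genes of the unfolded protein response of the endoplasmic reticulum were up-regulated in 11 of 18 cases and down-regulated in 0 (median log2 fold change 0.81). BIP1, the luminal HSP70, had 749, 892 and 632 FPKM in 35S HS and 231, 187 and 259 FPKM in 35S NS columns (log2 fold change 1.75, limma adjusted p = 0.00084). PDIL2-2, a protein disulphide isomerase, had 40.3, 45.3 and 27.00 FPKM under HS and 15.01, 10.1 and 10.9 FPKM under NS (log2 fold change 1.63, limma adjusted p = 0.011). BZIP17, which encodes a membrane-bound factor of this response, and the calreticulin gene CRT3 did not pass (log2 fold changes 0.17 and -0.15, limma adjusted p = 0.47 and 0.85). BIP1 shares 2122 bp at 97.2% identity with AT5G42020, so that fragments of either could count for the other.

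Transcripts for the detoxification of reactive oxygen species were up-regulated in 10 of 19 cases (median log2 fold change 0.33). This count was 6 without 35S HS column 1, 4 under quantile normalization and 3 with columns scaled to the same total. APX2 (AT3G09640), a cytosolic ascorbate peroxidase and a known HSF target, had 653, 863 and 682 FPKM in 35S HS and 108, 138 and 116 FPKM in 35S NS columns (log2 fold change 2.6 ± 0.32 SE, limma adjusted p = 0.0001). It was listed at 0 in every WT NS column and averaged 253 FPKM in WT HS columns. FSD3, an iron superoxide dismutase of the chloroplast nucleoid, had 42.1, 43.5 and 47.2 FPKM in 35S HS and 26.4, 23.2 and 24.9 FPKM in 35S NS columns (log2 fold change 0.83, limma adjusted p = 0.00021). FSD1 overlapped between the groups, and its log2 fold change of 0.02 (limma adjusted p = 0.92) was -0.35 under quantile normalization, a decrease past the threshold (limma adjusted p = 0.028). The peroxisomal catalase gene CAT2 was the 1 member that fell, with 563, 707 and 616 FPKM in 35S HS and 824, 884 and 1138 FPKM in 35S NS columns (log2 fold change -0.59, limma adjusted p = 0.012), and its call was lost without 35S HS column 0 (adjusted p = 0.053).

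In the pathway to galactinol and raffinose, osmoprotectants of stressed leaves, 3 of 10 tested genes were up-regulated and 1 was down-regulated (median log2 fold change 0.47). The called share of this list was below the 42.3% called among all tested genes. Its up-regulated share was above the 22.6% of all tested genes, and its down-regulated share was below their 19.7%. GOLS1, galactinol synthase, had 2125, 2078 and 1889.8 FPKM in 35S HS and 612, 982 and 1316 FPKM in 35S NS columns (log2 fold change 1.13, limma adjusted p = 0.0066). MIPS2, which makes the inositol precursor, had 1634, 1830.1 and 1543 FPKM in 35S HS and 374, 635 and 648 FPKM in 35S NS columns (log2 fold change 1.64, limma adjusted p = 0.00057). Its homologue MIPS1 went the other way, with 307, 390.2 and 336 FPKM in 35S HS and 417, 448 and 558 FPKM in 35S NS columns (log2 fold change -0.46, limma adjusted p = 0.025). The call of MIPS1 was lost without 35S NS column 2 and 35S HS columns 0 and 2 (adjusted p from 0.071 to 0.092), 1 at a time, and the number of down-regulated members was 0 without 35S NS column 2 and 35S HS column 2 and 2 without 35S NS column 0.

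Plasma membrane aquaporins, the water channels of the PIP family, were up-regulated in 5 of 13 cases and down-regulated in 0 (median log2 fold change 0.23). The called members were 38.5% of the list, below the 42.3% called among all tested genes. The number of up-regulated PIP genes was 3 without 35S NS column 0 and 35S HS columns 1 and 2, and that of down-regulated ones was 1 without WT NS column 1, WT HS column 0 and 35S NS column 0. Under quantile normalization, and equally with columns scaled to the same total, 3 were up-regulated and 1 was down-regulated. PIP2;3 had 886, 1073 and 942 FPKM in 35S HS and 229, 288 and 321 FPKM in 35S NS columns (log2 fold change 1.8, limma adjusted p = 2.6e-06). PIP2B had 445, 567 and 526 FPKM under HS and 181, 204 and 238 FPKM under NS (log2 fold change 1.31, limma adjusted p = 3e-05). Both are copies of each other over 988 bp at 90.69% identity. Of 11 tested CBF and cold-regulated genes 2 were up-regulated and 2 down-regulated (median log2 fold change -0.29). Together these were 36.4% of the list, below the 42.3% called among all tested genes. The number of down-regulated ones was 1 without 35S NS columns 1 and 2 and 35S HS column 1 and 4 without 35S NS column 0, 1 column at a time, and 4 under quantile normalization. The up-regulated members were the dehydrin genes ERD10 and COR47. ERD10 had 549, 626 and 576 FPKM in 35S HS and 156, 215 and 248 FPKM in 35S NS columns (log2 fold change 1.53, limma adjusted p = 0.00096), and COR47 had a log2 change of 1.39 (limma adjusted p = 0.0014). The down-regulated members were CBF3 and COR413IM1, and COR413IM1, a cold-regulated gene of the chloroplast inner envelope, had 29.1, 30.1 and 36.5 FPKM in 35S HS and 67.97, 98.4 and 80.2 FPKM in 35S NS columns (log2 fold change -1.36, limma adjusted p = 0.00011). The dehydrin gene RAB18 was down-regulated as well, with 12.4, 10.3 and 13.9 FPKM in 35S HS and 21.3, 43.2 and 40.01 FPKM in 35S NS columns (log2 fold change -1.45, limma adjusted p = 0.0031).

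Parts of the machinery for RNA processing and for protein synthesis and turnover were up-regulated by small amounts that depended on the scaling of the columns. The list of nuclear ribosomal protein genes was taken by product name. It mixes products of cytosolic and organellar ribosomes and can hold proteins with such a family name that are not in ribosomes. Of its 258 tested genes 159 were up-regulated and 3 down-regulated (median log2 fold change 0.31). Under quantile normalization 30 were up-regulated, and 10 were with columns scaled to the same total. Their summed level was 41611 to 42341 FPKM in 35S HS columns and 31314 to 35320 FPKM in 35S NS columns, with no overlap. Of 37 genes of the 26S proteasome, which degrades ubiquitinated proteins, 19 were up-regulated and 0 down-regulated (median 0.26), against 9 and 3 up-regulated under these scalings. Of 19 SR splicing factor genes 10 were up-regulated (median 0.23), against 6 and 5, with 0 down-regulated as reported and 1 under each of these scalings. SR45A, known to be alternatively spliced under stress, had 423, 469 and 436 FPKM in 35S HS and 95.1, 112 and 103 FPKM in 35S NS columns (log2 fold change 2.1, limma adjusted p = 1.1e-06). SR30 had 235, 282 and 243 FPKM under HS and 103, 114 and 109.9 FPKM under NS (log2 fold change 1.22, limma adjusted p = 1.1e-05).

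The largest decreases, by the same rule, included WRKY38, WRKY54 and NIMIN-2. WRKY38 (AT5G22570), which encodes a repressor of basal defence, had 0.716, 0.638 and 0.0689 FPKM in 35S HS and 17.00, 11.9 and 15.1 FPKM in 35S NS columns (log2 fold change -5.44 ± 1.4 SE, limma adjusted p = 0.0098). WRKY54, a regulator of salicylic acid levels and senescence, had 2.42, 2.17 and 0.891 FPKM in 35S HS and 35.8, 30.9 and 38.5 FPKM in 35S NS columns (log2 fold change -4.38, limma adjusted p = 0.0011). NIMIN-2, whose product binds the salicylic acid receptor NPR1, had 4.48, 2.89 and 1.51 FPKM in 35S HS and 47.6, 27.5 and 37.1 FPKM in 35S NS columns (log2 fold change -3.75, limma adjusted p = 0.0024). WRKY38, WRKY54 and WRKY70, the last named here after its value was seen, were the 3 down-regulated genes among the 18 of the salicylic acid list, with 0 up-regulated and a list median of -0.76, a share below the 19.7% of all tested genes that were down-regulated. The number of down-regulated members was 5 without WT HS column 0 and 6 without WT HS column 2, and 10 when only the 6 columns of the line were fitted. The marker gene PR1 overlapped between the groups, with 192, 198 and 121 FPKM in 35S HS and 92.4, 134 and 116 FPKM in 35S NS columns (limma adjusted p = 0.77).

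Further large decreases were those of OFP16, an ovate family repressor of growth genes, of MYB48 and of genes without an assigned function. OFP16 had 0.796, 0.474 and 0.995 FPKM in 35S HS and 12.8, 10.9 and 16.7 FPKM in 35S NS columns (log2 fold change -4.18, limma adjusted p = 1.3e-05). MYB48 had 2.31, 2.69 and 3.71 FPKM under HS and 27.8, 30.5 and 24.6 FPKM under NS (log2 fold change -3.27, limma adjusted p = 2.1e-06). AT1G65500, AT3G14395 and AT1G11700 had log2 fold changes of -3.32, -3.27 and -3.21 (limma adjusted p = 0.01, 0.0046 and 1.4e-06). The spliceosomal U1.5 snRNA gene was listed at 0 in every 35S HS column and at 23.1, 13.4 and 10.7 FPKM in 35S NS columns (limma adjusted p = 0.018), with the call lost without 35S NS column 0 (adjusted p = 0.05). It has 12 near-identical loci, so that this value is uncertain.

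In glucosinolate synthesis, which makes the defence compounds of the cabbage family, 10 of 17 tested genes were down-regulated and 0 up-regulated (median log2 fold change -0.9). CYP79B2, the entry enzyme from tryptophan, had 11.3, 2.39 and 7.98 FPKM in 35S HS and 42.9, 61.1 and 55.8 FPKM in 35S NS columns (log2 fold change -3.13, limma adjusted p = 0.00058). CYP83B1, the next enzyme of the indolic branch, had 62.1, 31.8 and 47.8 FPKM in 35S HS and 223, 237 and 294 FPKM in 35S NS columns (log2 fold change -2.45, limma adjusted p = 0.0001). BCAT4, which starts the chain elongation of methionine, overlapped between the groups (log2 fold change 0.05, limma adjusted p = 0.87), and overlaps a gene on the opposite strand by 307 bp. The tested genes of the list summed to 1159, 799 and 874 FPKM in 35S HS columns and to 1366, 1796 and 1776 FPKM in 35S NS columns. The sums did not overlap.

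In flavonoid and anthocyanin synthesis 11 of 12 tested genes were down-regulated and 0 up-regulated (median log2 fold change -1.9). The number of down-regulated members was 6 without 35S NS columns 1 and 2 and 35S HS column 2, 1 column at a time. PAP1, the MYB factor that activates the pigment genes, had 8.29, 3.25 and 4.72 FPKM in 35S HS and 20.3, 59.2 and 42.9 FPKM in 35S NS columns (log2 fold change -2.88, limma adjusted p = 0.00047). Chalcone synthase (CHS), the entry enzyme, had 176, 204 and 156 FPKM in 35S HS and 305, 438 and 502 FPKM in 35S NS columns (log2 fold change -1.19, limma adjusted p = 0.0008). UF3GT, a glycosyltransferase of anthocyanins, varied widely, with 4.85, 3.06 and 1.44 FPKM in 35S HS and 5.35, 25.7 and 15.1 FPKM in 35S NS columns (log2 fold change -2.2, limma adjusted p = 0.017), and its call was lost without 35S NS columns 1 and 2 and 35S HS column 2 (adjusted p from 0.057 to 0.072), 1 at a time. MYB111, a factor of the flavonol branch, was the member that did not pass (log2 fold change 0.16, limma adjusted p = 0.67).

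**Figure D4:**
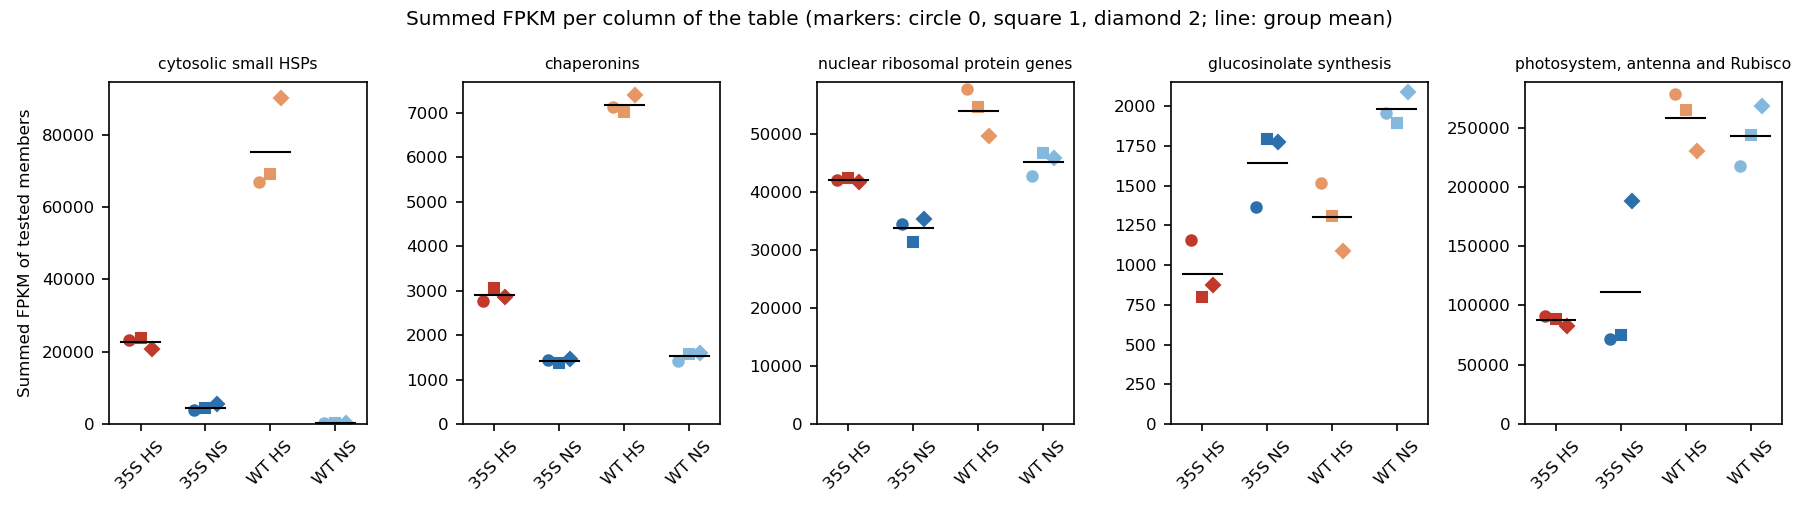
Summed FPKM of the tested members of 5 gene lists on linear y axes from 0, 1 marker per column of the table (circle 0, square 1, diamond 2) and a line at the group mean, for 35S HS, 35S NS, WT HS and WT NS plants. Cytosolic small HSPs summed to 20872 to 23684 FPKM in 35S HS and to 3774 to 5498 FPKM in 35S NS columns. In the panel of photosynthesis genes 35S NS column 2 stands at 188312 FPKM, between the other 35S:HSFA1b columns and the WT columns.

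Genes of the photosystems, their antennae and Rubisco depended on column 2. Of 43 tested genes 0 were up-regulated and 0 down-regulated in limma (median log2 fold change -0.1), whereas without 35S NS column 2 the numbers were 7 up and 0 down (median 0.27), without WT NS column 2 they were 1 up and 0 down, and under quantile normalization 19 were down-regulated. When only the columns of the line without 35S NS column 2 were fitted, 18 were up-regulated, and with columns scaled to the same total 2 were down-regulated. At an unadjusted p of at most 0.05 the numbers were 1 up and 0 down. Their summed level was 90824, 88205 and 82967 FPKM in 35S HS columns and 71553, 74855 and 188312 FPKM in 35S NS columns. Without column 2 the HS columns lay above the NS columns, and with it they did not. LHCB1.4, an antenna protein of photosystem II, had 1828, 1769 and 1825 FPKM in 35S HS and 1126, 1275 and 2121 FPKM in 35S NS columns, and its log2 fold change was 0.32 with column 2 (limma adjusted p = 0.24) and 0.59 without it (limma adjusted p = 0.0032). LHCB1.3 had 5341, 4886 and 4552 FPKM in 35S HS and 4095, 4324 and 21188 FPKM in 35S NS columns, and its sign turned with column 2 (log2 fold change -0.55 with and 0.22 without). Both genes have near-identical copies. No direction is read for this group.

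Abundant genes that passed the threshold downwards were checked in the same way. GER1, a germin-like protein of the cell wall, had 268, 252 and 308 FPKM in 35S HS and 764, 569 and 1011 FPKM in 35S NS columns (log2 fold change -1.47, limma adjusted p = 0.0032, and -1.26 and 0.016 without column 2). ELP, an extensin-like protein, had 263, 237 and 306 FPKM in 35S HS and 540.0, 576 and 986 FPKM in 35S NS columns (log2 fold change -1.34, limma adjusted p = 0.0048, and -1.06 and 0.02 without column 2). GLDP1, the P-protein of glycine decarboxylase in photorespiration, had 395, 503 and 471 FPKM in 35S HS and 629.8, 693 and 901 FPKM in 35S NS columns (log2 fold change -0.69, limma adjusted p = 0.013). Its call was lost without 35S NS column 2 and 35S HS column 0 (adjusted p from 0.051 to 0.056), 1 at a time. The lipid-transfer family gene AT2G10940 had 489, 482 and 558 FPKM in 35S HS and 808, 748 and 1326 FPKM in 35S NS columns (log2 fold change -0.87, limma adjusted p = 0.038), and lost the call without WT NS column 2, WT HS column 1, 35S NS columns 0 and 2 and 35S HS columns 0, 1 and 2 (adjusted p from 0.051 to 0.15), 1 at a time. GER1 overlaps a gene on the opposite strand by 931 bp.

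The circadian clock, a network of morning and evening repressors, was split. Of 19 tested clock genes 8 were up-regulated and 5 down-regulated (median log2 fold change 0.29). LHY, the morning MYB repressor, had 6.98, 8.51 and 7.01 FPKM in 35S HS and 45.7, 51.1 and 51.1 FPKM in 35S NS columns (log2 fold change -2.72 ± 0.12 SE, limma adjusted p = 4.1e-07). CHE, a TCP factor that represses CCA1, had 21.97, 18.7 and 26.4 FPKM under HS and 43.8, 37.6 and 47.9 FPKM under NS (log2 fold change -0.95, limma adjusted p = 0.00026). ELF3, of the evening complex, had 12.9, 13.01 and 11.51 FPKM in 35S HS and 2.597, 2.46 and 2.33 FPKM in 35S NS columns (log2 fold change 2.33, limma adjusted p = 7.6e-07). RVE2, a MYB factor related to LHY, had a log2 change of 2.02 (limma adjusted p = 0.00017). ELF3 overlaps a gene on the opposite strand by 183 bp.

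Light signalling genes were down-regulated more often than not, with 9 of 16 down and 3 up (median log2 fold change -0.52). PIF8 had 3.69, 7.67 and 5.63 FPKM in 35S HS and 30.00, 26.7 and 32.6 FPKM in 35S NS columns (log2 fold change -2.45, limma adjusted p = 2.3e-05). PIF5, a growth-promoting bHLH factor degraded in light, had 29.9, 32.96 and 34.6 FPKM under HS and 74.5, 79.8 and 85.2 FPKM under NS (log2 fold change -1.3, limma adjusted p = 1.8e-06). The photoreceptor gene PHYA was up-regulated (log2 fold change 0.61, limma adjusted p = 0.00058). PIF3 was up-regulated too (log2 fold change 0.55, limma adjusted p = 0.016), with the call lost without 35S NS columns 0 and 2 and 35S HS column 1 (adjusted p from 0.053 to 0.062), 1 at a time, and with columns scaled to the same total (adjusted p = 0.14). The number of up-regulated members was 1 without 35S NS column 0, and 1 with columns scaled to the same total.

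Among Aux/IAA genes, which encode repressors of auxin signalling and are themselves induced by auxin, 11 of 19 were down-regulated and 2 up-regulated (median log2 fold change -0.57). IAA3 had 15.97, 14.6 and 16.4 FPKM in 35S HS and 49.4, 42.4 and 40.6 FPKM in 35S NS columns (log2 fold change -1.49, limma adjusted p = 4.1e-05). IAA6 had 0.663, 0.371 and 0.536 FPKM under HS and 2.21, 1.93 and 1.799 FPKM under NS (log2 fold change -1.93, limma adjusted p = 0.0004). IAA29, known as a PIF target, had 8.78, 5.06 and 8.05 FPKM in 35S HS and 1.44, 1.399 and 1.74 FPKM in 35S NS columns (log2 fold change 2.22, limma adjusted p = 2.2e-05). The number of up-regulated members was 1 without WT NS columns 0, 1 and 2, 35S NS columns 1 and 2 and 35S HS columns 0 and 2, 1 column at a time, 1 with columns scaled to the same total and 4 when only the columns of the line were fitted. IAA3 overlaps a gene on the opposite strand by 640 bp.

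Gibberellin and brassinosteroid genes had more down-regulated than up-regulated members. Of 10 DELLA and gibberellin genes 6 were down-regulated and 1 up-regulated (median log2 fold change -0.93). RGL1, a DELLA growth repressor, had 4.004, 3.04 and 3.04 FPKM in 35S HS and 6.55, 7.98 and 7.95 FPKM in 35S NS columns (log2 fold change -1.16, limma adjusted p = 5.8e-05). GA2OX1, which inactivates gibberellin, had a log2 change of -1.29 (limma adjusted p = 0.0019), and GA3OX1, which makes the active hormone, one of 0.96 (limma adjusted p = 0.0043). Of 12 brassinosteroid genes 5 were down-regulated and 1 up-regulated (median -0.48), and 3 were down-regulated among those with a mean of at least 5 FPKM. The called share of these 12 genes was not far above the 42.3% called among all tested genes. Their down-regulated share was above the 19.7% of all tested genes, and their up-regulated share was below the 22.6%. The biosynthetic P450 genes DWF4 and ROT3 had log2 fold changes of -1.45 and -1.32 (limma adjusted p = 0.00014 and 0.00046). The coreceptor gene BAK1 was the 1 up-regulated member (log2 fold change 0.45, limma adjusted p = 0.011), a call that was lost with columns scaled to the same total.

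Cell cycle inhibitors were lower in 5 of 9 cases and higher in 1 (median log2 fold change -0.64), and the number of lower ones was 3 without 35S NS columns 1 and 2 and 35S HS column 1, 1 column at a time, and 3 under quantile normalization. KRP1, a cyclin-dependent kinase inhibitor, had 4.56, 4.17 and 4.57 FPKM in 35S HS and 16.6, 16.7 and 17.5 FPKM in 35S NS columns (log2 fold change -1.93, limma adjusted p = 1.8e-06). SMR1 had 22.8, 20.8 and 23.1 FPKM under HS and 57.1, 57.95 and 66.4 FPKM under NS (log2 fold change -1.44, limma adjusted p = 1.5e-05). SMR5, an inhibitor known to respond to reactive oxygen species, was the member that rose, with 174, 239 and 158 FPKM in 35S HS and 30.2, 84.2 and 7.31 FPKM in 35S NS columns (log2 fold change 2.82, limma adjusted p = 0.0065, and 1.89 and 0.0087 without column 2). SMR5 was listed at 0 in every WT NS column. SMR1 and SMR5 overlap genes on the opposite strand by 375 and 266 bp.

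Abscisic acid genes were mixed, with 3 of 13 metabolic and regulatory genes up-regulated and 6 down-regulated (median log2 fold change -0.21), and the number of down-regulated ones was 3 without 35S NS column 1. CYP707A4, a catabolic hydroxylase, had 62.4, 91.8 and 77.1 FPKM in 35S HS and 11.7, 11.6 and 10.6 FPKM in 35S NS columns (log2 fold change 2.75, limma adjusted p = 2.2e-06). Its homologue CYP707A2 had 0.3495, 0.1701 and 0.269 FPKM under HS and 2.102, 2.33 and 2.38 FPKM under NS (log2 fold change -3.12, limma adjusted p = 6.2e-05). NCED3, which catalyses the limiting step of synthesis, had 6.77, 10.2 and 6.83 FPKM in 35S HS and 2.45, 3.78 and 3.62 FPKM in 35S NS columns (log2 fold change 1.27, limma adjusted p = 0.027), and its call was lost without 35S NS columns 0 and 2 and 35S HS columns 1 and 2 (adjusted p from 0.051 to 0.098), 1 at a time.

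JAZ repressors of jasmonate signalling were variable between columns. Of 10 tested genes 1 was up-regulated and 4 down-regulated (median log2 fold change -0.57). The called share of these 10 genes was not far above the 42.3% called among all tested genes. Their up-regulated share was below the 22.6% of all tested genes, and their down-regulated share was above the 19.7%. JAZ6 had 53.1, 16.00 and 31.3 FPKM in 35S HS and 62.01, 111 and 87.9 FPKM in 35S NS columns (log2 fold change -1.5, limma adjusted p = 0.01), and lost the call when only the columns of the line without 35S NS column 2 were fitted (adjusted p = 0.067), where 2 of the list were down-regulated. JAZ9 had 175, 47.7 and 94.9 FPKM under HS and 161, 308 and 256 FPKM under NS, with overlap (log2 fold change -1.34, limma adjusted p = 0.022), and lost the call without 35S NS columns 1 and 2 and 35S HS columns 1 and 2 (adjusted p from 0.055 to 0.082), 1 at a time. JAZ1 had 167, 72.1 and 103 FPKM under HS and 19.5, 51.3 and 35.8 FPKM under NS (log2 fold change 1.7, limma adjusted p = 0.023). Its call was lost without 35S NS columns 0 and 2 and 35S HS columns 0 and 2 (adjusted p from 0.053 to 0.088), 1 at a time, and the number of up-regulated JAZ genes was then 0.

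Few of the early stress regulators that respond to many stimuli passed the threshold. Of 13 tested ERF genes, the ethylene response factors, 0 were up-regulated and 0 down-regulated in limma (median log2 fold change -0.03), 0 and 1 at an unadjusted p of at most 0.05, and the number of down-regulated ones was 2 without WT HS column 0 and 4 without WT HS column 2. When only the 6 columns of the line were fitted, 1 was up-regulated and 4 were down-regulated. ERF104 had 0.7902, 0.957 and 1.597 FPKM in 35S HS and 2.34, 2.904 and 2.73 FPKM in 35S NS columns (log2 fold change -1.3, limma adjusted p = 0.12), and ERF5 had 0.421, 0.348 and 0.397 FPKM in 35S HS and 0.745, 1.41 and 1.08 FPKM in 35S NS columns (log2 fold change -1.4, limma adjusted p = 0.073). Both passed as decreases without WT HS column 0 or 2, with adjusted p between 0.0085 and 0.022, and when only the 6 columns of the line were fitted (adjusted p = 0.007 for ERF104 and 0.012 for ERF5). ERF109 had 6.21, 2.505 and 2.07 FPKM under HS and 0.0421, 2.04 and 1.16 FPKM under NS (log2 fold change 2.67, limma adjusted p = 0.11).

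Of 16 tested genes in the list of WRKY factors, regulators of defence, 0 were up-regulated and 4 down-regulated (median log2 fold change -0.17). The down-regulated WRKY38, WRKY54 and WRKY70 belong to the salicylic acid list and are not among the 16. Among the 16, 25.0% were down-regulated, against 19.7% of all tested genes. The number of down-regulated ones was 2 without 35S NS columns 1 and 2 and 35S HS columns 1 and 2, and that of up-regulated ones was 1 without WT HS column 2, 1 column at a time. When only the 6 columns of the line were fitted, 2 were up-regulated and 7 down-regulated. WRKY60 had 3.56, 3.703 and 3.07 FPKM in 35S HS and 10.8, 11.6 and 8.96 FPKM in 35S NS columns (log2 fold change -1.6, limma adjusted p = 0.0085). WRKY46 had 7.03, 5.85 and 5.07 FPKM under HS and 25.5, 18.97 and 19.6 FPKM under NS (log2 fold change -1.83, limma adjusted p = 0.051), and passed without WT NS column 0 and WT HS columns 0 and 2 (adjusted p from 0.0075 to 0.031), 1 at a time, and when only the 6 columns of the line were fitted (adjusted p = 0.0001), under quantile normalization, with columns scaled to the same total and with a mean of at least 5 FPKM (adjusted p from 0.035 to 0.048). WRKY33, a central regulator of defence against fungi, overlapped between the groups, with 27.1, 37.1 and 18.3 FPKM in 35S HS and 15.1, 19.2 and 16.6 FPKM in 35S NS columns, and also overlaps a gene on the opposite strand by 272 bp. Of 6 ZAT and AZF zinc finger genes 2 were up-regulated and 0 down-regulated (median 1.07), so 33.3% were called, against 42.3% of all tested genes. The number of up-regulated ones was 1 without 35S NS columns 0 and 2 and 35S HS columns 0, 1 and 2, 1 column at a time. ZAT12, a regulator of the response to reactive oxygen species, had 109, 104 and 96.5 FPKM in 35S HS and 6.05, 14.4 and 11.96 FPKM in 35S NS columns (log2 fold change 3.34, limma adjusted p = 0.00095).

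Reference genes of expression studies gave a measure of drift. Of 9 such genes 2 were up-regulated and 2 down-regulated (median log2 fold change 0.2), so 44.4% were called, near the 42.3% of all tested genes. The number of up-regulated ones was 1 without WT NS column 2, 35S NS columns 0 and 1 and 35S HS columns 0, 1 and 2, and that of down-regulated ones was 0 without 35S NS column 2 and 35S HS column 2 and 1 without WT NS columns 0, 1 and 2, 35S NS columns 0 and 1 and 35S HS columns 0 and 1, 1 column at a time. With columns scaled to the same total 0 were up-regulated. PP2AA3, a phosphatase subunit, had 35.5, 36.7 and 35.6 FPKM in 35S HS and 30.3, 28.1 and 26.6 FPKM in 35S NS columns (log2 fold change 0.35, limma adjusted p = 0.002), a call that was lost with columns scaled to the same total. ACT2 had 202, 215 and 201 FPKM in 35S HS and 257, 226 and 284 FPKM in 35S NS columns (log2 fold change -0.3, limma adjusted p = 0.021), and its call was lost without 35S NS columns 0 and 2 and 35S HS columns 0 and 2 (adjusted p from 0.05 to 0.065), 1 at a time. ACT2 has a near-identical copy.

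The question whether genes near HSFA1b binding sites responded can be asked with the site lists of the study, which were measured in NP:HSFA1b plants, where the native promoter drives an HSFA1b fusion, and not in this line. Of 456 tested genes bound under HS only, 226 were up-regulated and 43 down-regulated (median log2 fold change 0.52). Of 441 genes bound under both conditions, 158 were up-regulated and 85 down-regulated (median 0.19). Of 101 genes bound under NS only, 15 were up-regulated and 27 down-regulated (median -0.16). Over all tested genes 22.6% were up-regulated and 19.7% down-regulated, so genes bound under HS lay above this background for increases and genes bound under NS only below it. Without 35S NS column 2 the counts were 213 and 33 for sites under HS only, 149 and 67 for both and 11 and 24 for NS only.

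A property that the choice of the comparison did not use was the number of exons. Of 2180 tested protein-coding genes with 1 exon, 12.2% were up-regulated and 33.0% down-regulated. Of 7132 genes with 2 to 5 exons these shares were 20.6% and 21.9%. Of 7917 genes with 6 exons or more they were 27.9% and 14.1%. The order was the same without 35S NS column 2, with 11.47%, 17.85% and 20.7% up-regulated and 25.9%, 17.5% and 11.7% down-regulated. Genes are not independent replicates, so these shares are given without a test.

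The response of the line was set against that of WT plants, with which it shares no column. In both genotypes 2580 genes were up-regulated, which is 64.3% of those of 35S:HSFA1b and 55.4% of those of WT plants, and 2204 were down-regulated (63.2% and 55.2%). The direction was opposite in 153 genes that were DEGs in both. Across the tested genes Pearson's r of the log2 fold changes was 0.54, given as a description since genes are not independent. A test of the difference itself, the interaction of genotype and treatment in limma, called 2112 genes (11.9%). The log2 change was higher in 35S:HSFA1b than in WT plants for 699 of them (3.94%) and lower for 1413 (7.97%). Without 35S NS column 2 the number was 1154 (6.51%), and it was 1182 without WT NS column 1, 1259 without WT NS column 2, 1251 without 35S NS column 1, 1300 without 35S HS column 1, 1213 without 35S HS column 2 and 3388 without WT HS column 0. As the 35S HS libraries and the WT libraries carry different numbers at the start of their description, genotype and library prefix cannot be told apart in these differences.

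**Figure D5:**
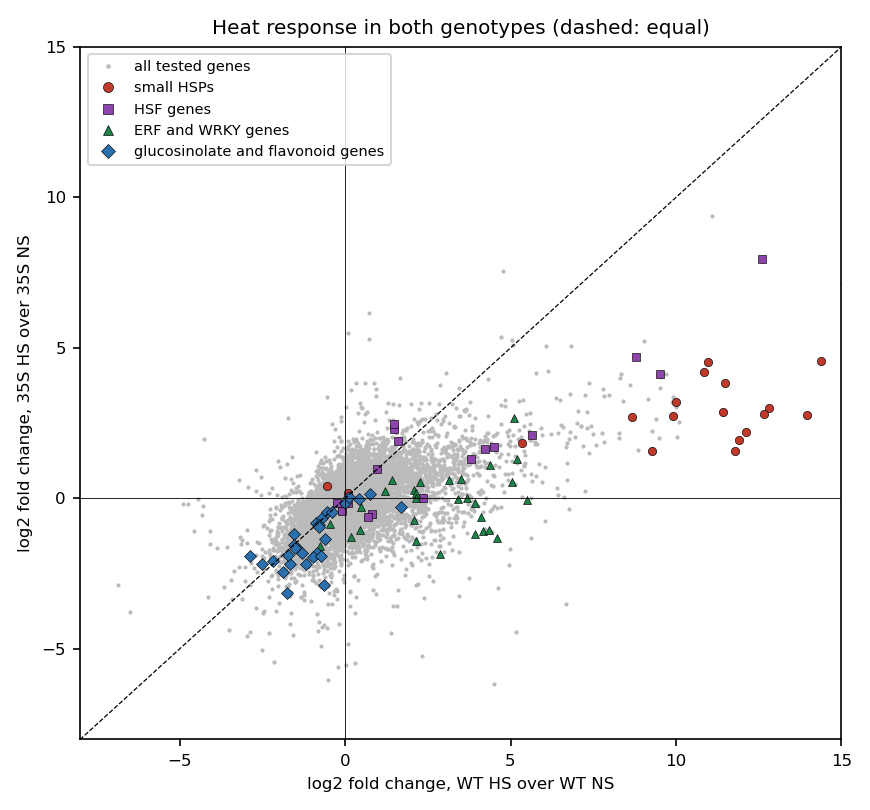
Log2 fold change of WT HS over WT NS on the x axis and of 35S HS over 35S NS on the y axis, 1 point per tested gene (17656 genes, leaving out 63 with a group mean of 0 and 1 outside the axes). The dashed line marks equal changes. Most small HSPs (red circles) lie to the right of it and above 0, ERF and WRKY genes (green triangles) lie to the right near a y value of 0, and glucosinolate and flavonoid genes (blue diamonds) mostly lie below 0 on both axes.

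Small HSPs had the smaller changes in the line. The median log2 fold change of the cytosolic members was 2.08 in 35S:HSFA1b and 10.91 in WT plants, and that of the organelle members 3.0 and 12.08, and 10 of 12 and 6 of 6 differed past the threshold. Among all tested genes 11.9% differed. HSP17.4A had 2445, 2533 and 2197 FPKM in 35S HS and 516, 601 and 784 FPKM in 35S NS columns, against a mean of 9139 FPKM in WT HS and 2.46 FPKM in WT NS plants, and the difference of the log2 changes was -9.98 ± 0.37 SE (limma adjusted p = 5.7e-08). HSP23.6 averaged 5692 FPKM in WT HS and 0.405 FPKM in WT NS plants, with a difference of -11.2 (limma adjusted p = 3e-07). HSP17.7-CII averaged 9094 FPKM in WT HS and 2.81 FPKM in WT NS plants, with a difference of -10.21 (limma adjusted p = 2.9e-07). In each of these genes the line had the higher level under NS and the lower level under HS. The differences of HSP17.6A-CII, HSP22.0 and HSP17.8-CI were -9.89, -9.83 and -6.45, and that of HSP101 was -5.83 (limma adjusted p from 9.3e-08 to 0.0015 over the 4). Sizes for genes near 0 in WT NS plants depend on the pseudocount. APX2 averaged 733 FPKM in 35S HS and 253 FPKM in WT HS plants, and so exceeded the WT level under HS.

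HSF genes differed in the same direction in part. HSFA2 had a difference of -4.09 (limma adjusted p = 0.00049), at a mean of 513 FPKM in 35S HS and 2656 FPKM in WT HS plants. HSFA7A had one of -5.39 and HSFA7B one of -4.64 (limma adjusted p = 1.2e-07 and 0.014). HSFA1D went the other way, with a larger change in the line by 0.84 (limma adjusted p = 0.021), but the call was lost without 35S NS column 2 and 35S HS columns 1 and 2 (adjusted p from 0.051 to 0.057), 1 at a time. AT1G71000 averaged 402 FPKM in 35S HS and 789.6 FPKM in WT HS plants, with a difference of -7.87 (limma adjusted p = 0.0011). Promoters of genes with a lower log2 change in the line than in WT plants held the heat shock element in 3.16% of cases (44 of 1391). Those with a higher log2 change held it in 0.587% (4 of 681) and all tested genes in 0.575%. The lower set includes genes that fell more in the line, such as OFP16, and the higher set genes that fell less, such as LHY.

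The early stress regulators were up-regulated mainly in WT plants. Of 13 ERF genes 13 were up-regulated in WT plants, with a median log2 fold change of 4.17, against 0 in the line. Over all tested genes 26.3% were up-regulated in WT plants and 22.6% in the line. The log2 change was lower in the line past the threshold for 11 of the 13 ERF genes, against 7.97% of all tested genes. Without 35S NS column 2, 4 of the ERF genes differed, against 6.51% of all tested genes. ERF104 averaged 1.12 FPKM in 35S HS and 2.66 FPKM in 35S NS plants, against 58.4 FPKM in WT HS and 1.59 FPKM in WT NS plants, a difference of -5.9 ± 0.88 SE (limma adjusted p = 0.0019). WRKY46 averaged 5.98 FPKM in 35S HS and 21.4 FPKM in 35S NS plants, against 90.47 FPKM in WT HS and 10.2 FPKM in WT NS plants, a difference of -4.69 (limma adjusted p = 0.012). ERF5 and AZF2 had differences of -3.55 and -3.63 (limma adjusted p = 0.02 and 0.0064), and the call of ERF5 was lost without WT NS column 1 and 35S NS columns 1 and 2 (adjusted p from 0.052 to 0.055), 1 at a time, and with a pseudocount of 1 FPKM (adjusted p = 0.054). ZAT12 had one of -3.05 (limma adjusted p = 0.035), a call lost without WT NS columns 1 and 2, WT HS columns 1 and 2, 35S NS columns 1 and 2 and 35S HS columns 0, 1 and 2 (adjusted p from 0.05 to 0.088), 1 at a time, with a pseudocount of 1 FPKM (adjusted p = 0.062) and with the replicate block (adjusted p = 0.057). Of 16 WRKY genes 11 were up-regulated in WT plants and 7 differed, while 3 did without 35S NS column 2. For all tested genes the shares were 26.3%, 11.9% and 6.51%, in this order.

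Other genes had the larger change in the line. The 5 largest positive differences were those of AT3G44716, AT5G04980, PP2-A12, 5PTase12 and DGD2, and none of the 5 was a DEG of WT plants, with WT limma adjusted p between 0.1 and 0.97. AT3G44716, without assigned function, had 35.3, 52.6 and 41.01 FPKM in 35S HS and 4.54, 3.38 and 4.49 FPKM in 35S NS columns, against a mean of 3.16 FPKM in WT HS and 4.42 FPKM in WT NS plants, a difference of 3.92 ± 0.37 SE (limma adjusted p = 6.3e-05). AT5G04980, of the DNase I-like family, had 32.5, 56.3 and 45.7 FPKM in 35S HS and 5.03, 6.73 and 4.47 FPKM in 35S NS columns, against a mean of 3.85 FPKM in WT HS and 3.86 FPKM in WT NS plants, a difference of 3.02 (limma adjusted p = 0.00011). 5PTase12, an inositol polyphosphate 5-phosphatase, had 27.2, 40.5 and 36.1 FPKM in 35S HS and 5.19, 5.06 and 5.32 FPKM in 35S NS columns, against a mean of 5.53 FPKM in WT HS and 5.995 FPKM in WT NS plants, a difference of 2.84 (limma adjusted p = 4.2e-06). DGD2, a galactolipid synthase of chloroplast membranes, had 79.98, 134 and 96.1 FPKM in 35S HS and 11.502, 13.2 and 12.4 FPKM in 35S NS columns, against a mean of 11.1 FPKM in WT HS and 7.66 FPKM in WT NS plants, a difference of 2.54 (limma adjusted p = 0.0011). PP2-A12, of the phloem lectin family, had one of 2.9 (limma adjusted p = 8e-05). The HS and NS columns of the line did not overlap in any of the 5, as in 58.9% of all tested genes. 5PTase12 overlaps a gene on the opposite strand by 591 bp.

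Other named differences were those of AT1G65500, which fell in the line and rose in WT plants (-5.7, limma adjusted p = 0.014), and of CBF3, a cold-response factor. CBF3 had 0.825, 0.656 and 0.794 FPKM in 35S HS and 1.399, 2.203 and 1.94 FPKM in 35S NS columns (log2 fold change -1.26, limma adjusted p = 0.021). The call was lost without 35S NS columns 1 and 2 and 35S HS column 1 (adjusted p from 0.063 to 0.074), 1 at a time, and with a pseudocount of 1 FPKM (adjusted p = 0.097). The difference of CBF3 from WT plants was -2.67 (limma adjusted p = 0.011). GOLS1 had a smaller change in the line by -4.72 and SR45A by -2.97 (limma adjusted p = 1.8e-05 and 9.7e-07). LHY fell less in the line, by 0.72 (limma adjusted p = 0.022), with the call lost without WT NS columns 1 and 2 and 35S HS column 1 (adjusted p from 0.05 to 0.059), 1 at a time.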

How the data were processed

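Per the labels and the study's methods, total RNA was extracted with TRI reagent, treated with DNase and made into libraries with the Illumina TruSeq RNA kit, which were sequenced as 50 bp pairs on a HiSeq2000. The authors aligned reads to the TAIR10 transcriptome with GSNAP (5 mismatches, known splice sites), obtained FPKM with Cufflinks and Cuffdiff under geometric normalization, and deposited 1 table of FPKM for 33557 loci, of which 8775 are 0 in all 12 columns. Tool versions and strand handling are not given in the sources used here. Column digits are not tied to replicate numbers, so columns were assigned to groups only. Depth is unknown and limits the precision of low values.

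Values were tested with limma 3.58.1 in R 4.3.3 on log2(FPKM + 0.01), with an intensity trend, all 4 groups in 1 fit, and Benjamini-Hochberg adjustment over the 17720 loci with a mean of at least 1 FPKM. The threshold was an adjusted p of 0.05. Contrasts were 35S HS against 35S NS, WT HS against WT NS, and the difference of both. Named genes were HSFA1b, every tested HSF gene, the 10 largest increases and 10 largest decreases (no overlap, at least 10 FPKM in a group), the 5 largest differences in each direction, the 2 highest and 2 lowest members of each list with at least 4 tested members, members that alone went against their list, and the 5 most abundant called genes in each direction. Members and lists were chosen with earlier results of these data known. Ribosomal and proteasome lists were taken from RefSeq product names. Promoters, exon numbers, copies (BLAST+ 2.17.0) and opposite-strand overlaps come from RefSeq TAIR10.1, in which 32810 loci were found. Python 3.11.15, pandas 2.3.3 and matplotlib 3.10.9 were used for summaries and figures. The fits were tested on simulated data. Alternatives were another pseudocount, filter, scaling, threshold or trend, the column digit as a block, each column left out, and a fit of the columns of the line alone. A fit of the line without 35S NS column 2 and one of genes below 100 FPKM were chosen after seeing the data.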

Additional observations from a re-analysis of the deposited data

Results flagged for a closer look

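The heat response differed between 35S:HSFA1b and WT plants by the limma interaction test for 2112 genes, and the sizes for 32 named genes among them are given here. The values are differences of log2 fold changes, 35S:HSFA1b minus WT, and for none of them can the genotype be told apart from the library prefix. Small HSP genes changed less in the line, by -11.20 for HSP23.6, -10.21 for HSP17.7-CII, -9.98 for HSP17.4A, -9.89 for HSP17.6A-CII, -9.83 for HSP22.0 and -6.45 for HSP17.8-CI. Among the other chaperone genes AT1G71000 differed by -7.87, HSP101 by -5.83 and BIP1 by -1.73. The call of BIP1 was lost without WT NS columns 1 and 2, 35S NS column 2 and 35S HS column 2 (adjusted p from 0.06 to 0.065), 1 at a time, under quantile normalization (adjusted p = 0.09) and with the replicate block (adjusted p = 0.052). Of the HSF genes HSFA7A differed by -5.39, HSFA7B by -4.64, HSFA2 by -4.09 and HSFA1b by -1.35, and HSFA1D by 0.84.

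Early stress regulators had lower log2 changes in the line, with differences of -5.90 for ERF104, -4.69 for WRKY46, -3.63 for AZF2, -3.55 for ERF5, -3.05 for ZAT12 and -2.67 for CBF3. In the line ZAT12 rose, while the log2 changes of ERF104, WRKY46, AZF2, ERF5 and CBF3 were negative, past the threshold for CBF3 only. Differences of other genes were -5.70 for AT1G65500, -4.72 for GOLS1, -2.97 for SR45A, -2.52 for OFP16, -2.14 for IAA6 and -1.03 for RGL1, and the call of RGL1 was lost with columns scaled to the same total (adjusted p = 0.054). Positive differences were 3.92 for AT3G44716, 3.02 for AT5G04980, 2.90 for PP2-A12, 2.84 for 5PTase12, 2.54 for DGD2 and 0.72 for LHY. APX2 and SMR5 passed the same test, but with every WT NS column listed at 0 no size is given, and SMR5 did not pass with a pseudocount of 1 FPKM (adjusted p = 0.32).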

How the results depend on the processing

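Of 115 genes described in the text and called in 35S HS against 35S NS, 96 were called under every alternative fit tried for them, 19 lost the call under at least 1 and 0 changed sign. Of the 28 not called, 11 were called under some alternative and 9 changed sign. The 7500 DEGs of the line became 4688 at an adjusted p of 0.01 or less and 2083 when a change of 1 or more on the log2 scale was required, and leaving out 1 column at a time gave 5955 to 8337. The 8647 DEGs of WT plants became 2658 when that change was required. The 2112 differences between genotypes became 740 at an adjusted p of 0.01 or less and 1183 at an absolute difference of at least 1, with 1154 (without 35S NS column 2) to 3388 (without WT HS column 0) when 1 column was left out. The share of up-regulated genes among DEGs of the line was 53.5%, and 51.9% without a filter, 58.7% with a mean of at least 5 FPKM, 50.8% under quantile normalization, 31.2% with columns scaled to the same total, 50.8% below 100 FPKM and 51.5% to 54.9% with 1 column left out. With a motif of 4 alternating units the share of promoters was 0.0174% of tested genes, 0.0507% of up-regulated genes and 0.549% of those with a log2 fold change of at least 2. It was 0% of down-regulated genes, 0.0101% of genes not called and 0.0187% of all promoters. Genes with a higher log2 change in the line than in WT plants held it in 0%, and those with a lower one in 0.216%. Genes whose sign changed were not called as reported, and HSC70-1, CLPC1 and FSD1 were called as decreases under quantile normalization. Under quantile normalization the log2 fold change was -0.33 for HSC70-1, -0.30 for CLPC1, -0.033 for MBF1A, -0.35 for FSD1 and -0.22 for BCAT4. With columns scaled to the same total it was -0.13 for HSFA8, -0.020 for HSC70-1, -0.047 for HSP90.4, -0.071 for CLPC1, -0.12 for FSD1 and -0.092 for BCAT4. With 1 column left out it ran from -0.15 to 0.16 for HSFA8 (negative without 35S NS column 1, 35S HS column 0 or 35S HS column 1), from -0.024 to 0.17 for CLPC1 and -0.13 to 0.13 for FSD1 (negative without 35S NS column 0), from -0.11 to 0.30 for MYB111 (negative without 35S NS column 1), from -0.17 to 0.21 for BCAT4 (negative without 35S NS column 0 or 35S HS column 0) and from -0.96 to 0.22 for LHCB1.3 (positive without 35S NS column 2, also when only columns of the line were fitted). The causes were not tested. With the digit of the column name as a replicate block 6841 genes were DEGs of the line, and the digits did not pair the columns, since deviations of same-numbered columns correlated at -0.0277, -0.011 and 0.0292. The unknown depth limits low values, and the library prefix limits comparisons between genotypes.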
